A study of Mus musculus with 12 samples.

Results

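The type I interferon response genes described here are 40 mouse genes, taken by symbol from a matrix of 54104 rows with an Ensembl gene identifier. All 40 had 1 row each, and 37 passed an expression filter, which asked for 1 FPKM or more in 3 or more of 12 libraries. FPKM are fragments counted on a gene, divided by its length and by the library's mapped fragments. The rule used symbols only and no measured value. Mx1, Mx2 and Ifi44 did not pass the filter and were not tested.

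The study sequenced RNA of mouse cells labelled Ly6C or Ly6G, from spleen and from tumor, in 4 groups of 3 libraries numbered 1 to 3. Its design text names a comparison of polymorphonuclear and monocytic myeloid-derived suppressor cells, immature myeloid cells that restrain T cells. Ly6G is a surface protein of granulocytic and Ly6C a surface protein of monocytic cells, although neutrophils carry Ly6C too. Per the labels, the Ly6C spleen and Ly6C tumor groups and the Ly6G spleen and Ly6G tumor groups differ in label and tissue alone. The sources used here give no strain, age, genotype, tumor model, treatment or sorting gate. Nothing there says that the 3 libraries of a group came from separate animals. The p-values therefore measure the spread between these libraries, which may be technical.

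Cells release type I interferons after they sense foreign or misplaced nucleic acid. The interferons bind the receptor formed by IFNAR1 and IFNAR2, the kinases JAK1 and TYK2 phosphorylate STAT proteins such as STAT2, which joins IRF9 in a complex that enters the nucleus. There it binds the interferon-stimulated response element in the promoters of a large set of genes, whose products block viruses, sense nucleic acid and adjust the response itself. Many of these genes also have a basal level in leukocytes without added interferon.

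The element was looked for as the letters GAAA, any 2 bases and GAAA again, on both strands, in RefSeq promoter windows of 250 bases before and 50 bases after the start site (build GRCm38.p6). Of the 40 genes, 31 had a window. The motif lay in the window of 18 of the 31 (58.1%), against 1079 of 27025 genes with a window (3.99%). A match describes the letters only. The 9 genes without an entry were Dhx58, Zbp1, Usp18, Oas2, Mx1, Mx2, Parp9, Parp14 and Rtp4.

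Promoters of 6 genes are printed because the results below turn on them: Bst2 and Isg15, the neighbours Rsad2 and Cmpk2 that moved in opposite directions between tissues, and the near-copies Ifit3 and Ifit3b. Each line gives the 250 bases before the start site, 5′ to 3′ on the gene's strand, with motif letters in capitals.
Bst2 (chr8:71537473-71537722, minus strand): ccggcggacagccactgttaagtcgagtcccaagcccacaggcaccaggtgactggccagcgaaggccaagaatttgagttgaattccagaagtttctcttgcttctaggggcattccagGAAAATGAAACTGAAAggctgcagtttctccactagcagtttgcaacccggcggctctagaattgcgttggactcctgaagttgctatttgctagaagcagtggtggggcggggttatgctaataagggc
Isg15 (chr4:156200819-156201068, minus strand): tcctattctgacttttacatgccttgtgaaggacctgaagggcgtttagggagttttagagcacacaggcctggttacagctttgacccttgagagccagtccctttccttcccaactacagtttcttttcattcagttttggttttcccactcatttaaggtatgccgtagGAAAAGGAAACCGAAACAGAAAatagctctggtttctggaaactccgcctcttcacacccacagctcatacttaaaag
Rsad2 (chr12:26456453-26456702, minus strand): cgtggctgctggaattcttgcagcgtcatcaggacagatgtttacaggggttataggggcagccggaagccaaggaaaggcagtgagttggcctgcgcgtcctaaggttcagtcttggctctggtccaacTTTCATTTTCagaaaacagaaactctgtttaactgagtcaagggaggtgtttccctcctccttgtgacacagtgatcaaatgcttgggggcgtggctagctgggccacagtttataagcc
Cmpk2 (chr12:26468965-26469214, plus strand): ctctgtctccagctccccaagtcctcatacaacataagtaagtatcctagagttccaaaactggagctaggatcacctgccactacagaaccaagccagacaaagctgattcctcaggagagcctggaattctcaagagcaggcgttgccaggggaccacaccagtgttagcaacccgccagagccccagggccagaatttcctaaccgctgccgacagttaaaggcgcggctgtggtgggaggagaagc
Ifit3 (chr19:34583279-34583528, plus strand): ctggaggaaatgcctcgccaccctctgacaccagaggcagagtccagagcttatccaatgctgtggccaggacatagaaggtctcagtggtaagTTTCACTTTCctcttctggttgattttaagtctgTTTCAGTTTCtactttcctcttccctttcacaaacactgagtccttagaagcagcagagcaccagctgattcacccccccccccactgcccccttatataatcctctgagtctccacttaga
Ifit3b (chr19:34607707-34607956, plus strand): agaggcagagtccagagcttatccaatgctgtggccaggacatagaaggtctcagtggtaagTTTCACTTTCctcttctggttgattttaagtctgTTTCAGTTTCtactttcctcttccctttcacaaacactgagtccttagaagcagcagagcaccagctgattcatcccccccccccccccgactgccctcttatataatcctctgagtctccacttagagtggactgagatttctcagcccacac

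The Isg15 promoter held 3 overlapping matches, the nearest starting 66 bases before the start site, and the Bst2 promoter held 2 overlapping matches, the nearest at 124 bases. Rsad2 held 1 match on the opposite strand at 120 bases, and Cmpk2 held none. Rsad2 and Cmpk2 lie on chromosome 12 on opposite strands, 12751 bases apart. Ifit3 and Ifit3b each held 2 matches on the opposite strand, and their promoters had the same base at 86.2% of 218 positions when aligned with a shift of 32 bases.

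The motif was present in 3 of the 3 windowed genes that were higher in Ly6C tumor than in Ly6C spleen, in 7 of 12 that were lower and in 8 of 15 that did not pass the test. In the Ly6G comparison it was present in 5 of 7 that were higher, 5 of 11 that were lower and 8 of 12 that did not pass.

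The libraries differed in composition between the tissues. The summed FPKM of 20 pan-leukocyte genes was 4596 to 5434 in Ly6C spleen and 194 to 396 in Ly6C tumor, and 5634 to 5655 in Ly6G spleen and 489 to 856 in Ly6G tumor. All 20 fell in tumor under both labels, and the 9 of 16 epithelial or adherent-cell genes that passed the filter all rose. All 16 together summed to 4.30 to 8.53 FPKM in spleen and 582 to 1197 in tumor. Ly6g, the gene of the Ly6G label, was at 131 to 209 FPKM in Ly6C spleen, 591 to 717 in Ly6G spleen, 11.8 to 13.8 in Ly6C tumor and 31.5 to 54.1 in Ly6G tumor, whereas Ly6c2 overlapped between the labels within each tissue. The mitochondrial share of FPKM was 1.68% to 2.87% in spleen and 3.07% to 11.9% in tumor, highest in replicate 3 of both tumor groups. The part of these differences in the results below was not tested, and tissue and cell content cannot be told apart in this design. In bulk libraries, fewer cells of a type and less RNA per cell cannot be told apart either.

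The IFITM genes dominated the set. Ifitm1, Ifitm2 and Ifitm3, membrane proteins that block virus entry, took 64% to 90.3% of the summed FPKM of the 40 genes, and the other 37 together summed to 303 to 634 FPKM per library. Among the 37 genes tested, the group mean was highest in Ly6G spleen for 19, in Ly6G tumor for 12, in Ly6C spleen for 5 and in Ly6C tumor for 1, Bst2. It was lowest in Ly6C tumor for 23 of them. The commonest order, held by 10 genes, was Ly6G spleen, Ly6C spleen, Ly6G tumor and Ly6C tumor from high to low. These ranks are on FPKM as deposited, and no share over all genes was computed for them. They are therefore not shown to be a trait of this set. Total FPKM was 426182 to 449309 in the Ly6G spleen libraries and 331681 to 388126 in the others.

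**Figure D1:**
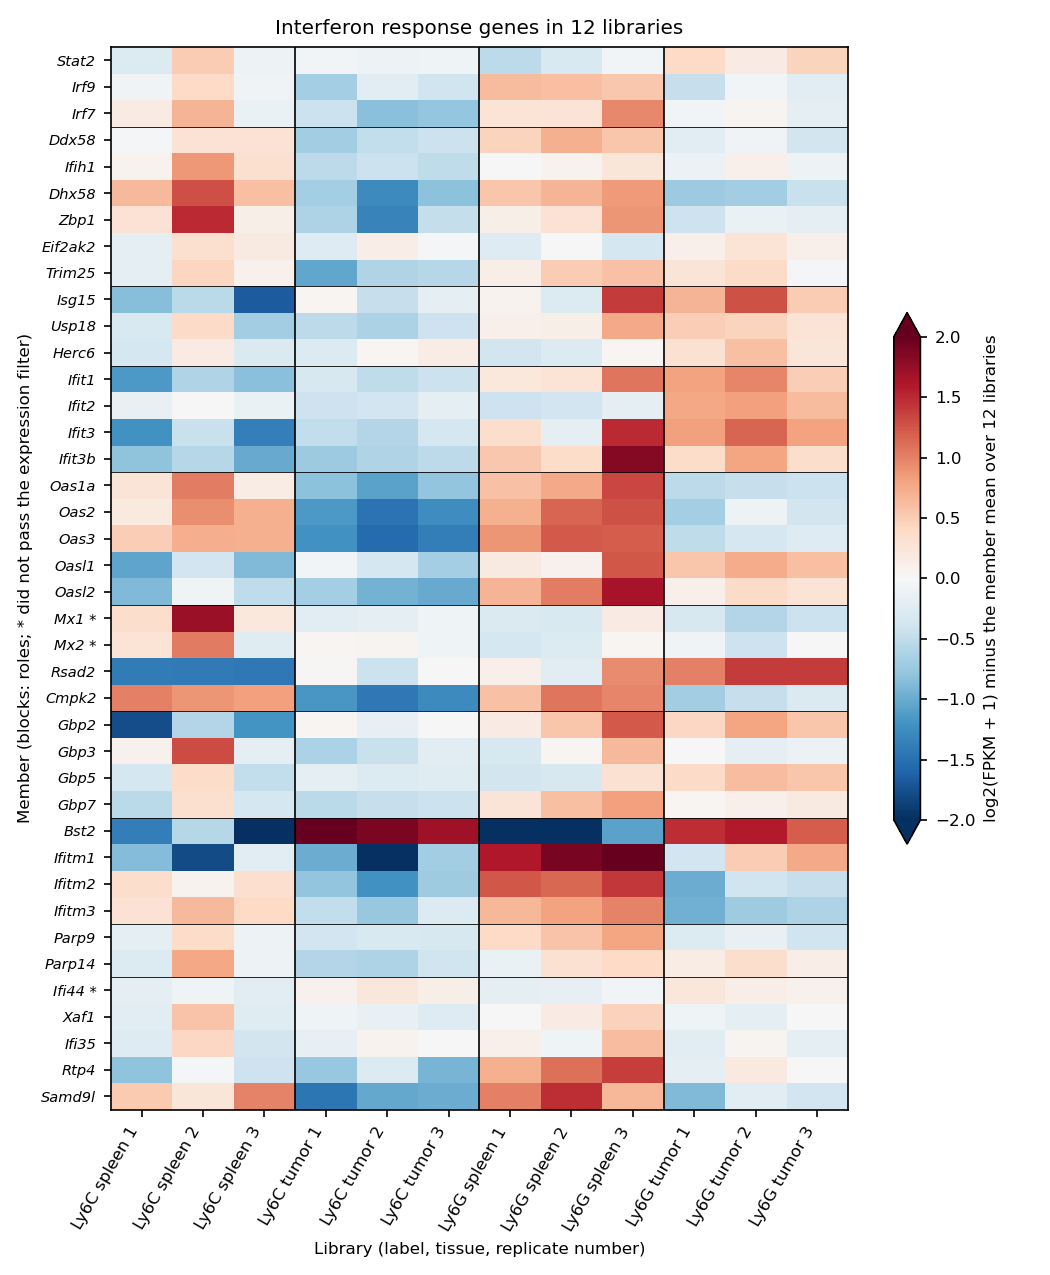
Heat map of the 40 genes (rows, in blocks by role) in the 12 libraries (columns); colour is log2(FPKM + 1) minus the mean of that gene over the libraries, and an asterisk marks the 3 genes that did not pass the filter. The 3 Oas genes Oas1a, Oas2 and Oas3 are high in spleen under both labels, and Bst2 is high in tumor. Ifit1, Ifit3 and Oasl1 are higher under Ly6G than under Ly6C within each tissue. Scaled to pan-leukocyte genes, no interferon response gene is called lower in tumor, and 97.7% (Ly6C) and 97.4% (Ly6G) of all passing genes are higher.

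Between tissues, 17 of 37 genes were lower and 3 were higher in Ly6C tumor than in Ly6C spleen. The tests used limma with Benjamini-Hochberg adjustment over all 13610 genes tested, and a gene passed at an adjusted p under 0.05. Among all genes tested, 30.5% were lower, 46.2% were higher and 76.7% passed in this comparison, so that passing as such was common. The median log2 change was -0.31 for the 37 genes and 0.27 for all genes. In the Ly6G groups 15 genes were lower and 7 were higher in tumor, where 24.7% of all genes were lower, 51.5% were higher and 76.2% passed. The medians there were -0.33 and 0.43. The 3 tumor libraries all lay above or all below the 3 spleen libraries for 23 genes in Ly6C (78.5% of all genes tested did so) and for 25 in Ly6G (79.1% of all). All changes are differences of log2(FPKM + 1), which understate the change of low genes.

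The same 12 genes were lower in tumor under both labels: Cmpk2, Ddx58, Dhx58, Ifitm2, Ifitm3, Irf7, Irf9, Oas1a, Oas2, Oas3, Parp9 and Samd9l. Bst2 and Rsad2 were higher under both. Gbp2 was higher under Ly6C alone among the calls, and Eif2ak2, Gbp5, Herc6, Ifit2 and Stat2 under Ly6G alone. Gbp3, Ifih1, Parp14, Trim25 and Zbp1 passed as lower in the Ly6C comparison, and Ifitm1, Oasl2 and Rtp4 in the Ly6G comparison. Of these 14 genes that passed under 1 label, the difference between the labels itself passed for Ifit2 and Ifih1. Gbp7, Ifi35, Ifit1, Ifit3, Ifit3b, Isg15, Oasl1, Usp18 and Xaf1 passed in neither.

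These directions hold for FPKM as deposited. Rescaled so that the pan-leukocyte genes are level in every library, 39 of the 40 genes passed the filter, of which 39 were called higher in Ly6C tumor and 38 in Ly6G tumor, and 0 lower. Of all genes that passed under this rescaling, 97.7% and 97.4% were higher in tumor, so that few genes of any kind were called lower. The median of all genes then moved to 3.04 and 2.06, and that of the interferon response genes to 2.62 and 1.60, which is below it in both. With median-of-ratios factors the counts higher and lower were 3 and 21 in the Ly6C comparison and 2 and 22 in the Ly6G comparison, and the median of all genes was 0.03 and 0.01. The share of higher calls among all genes that passed went from 60.2% to 51.2% and from 67.6% to 51% with those factors. In the Ly6G comparison the count of 7 higher genes was 2 with median-of-ratios factors, 3 after quantile normalization and 4 with a filter at 5 FPKM.

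**Figure D2:**
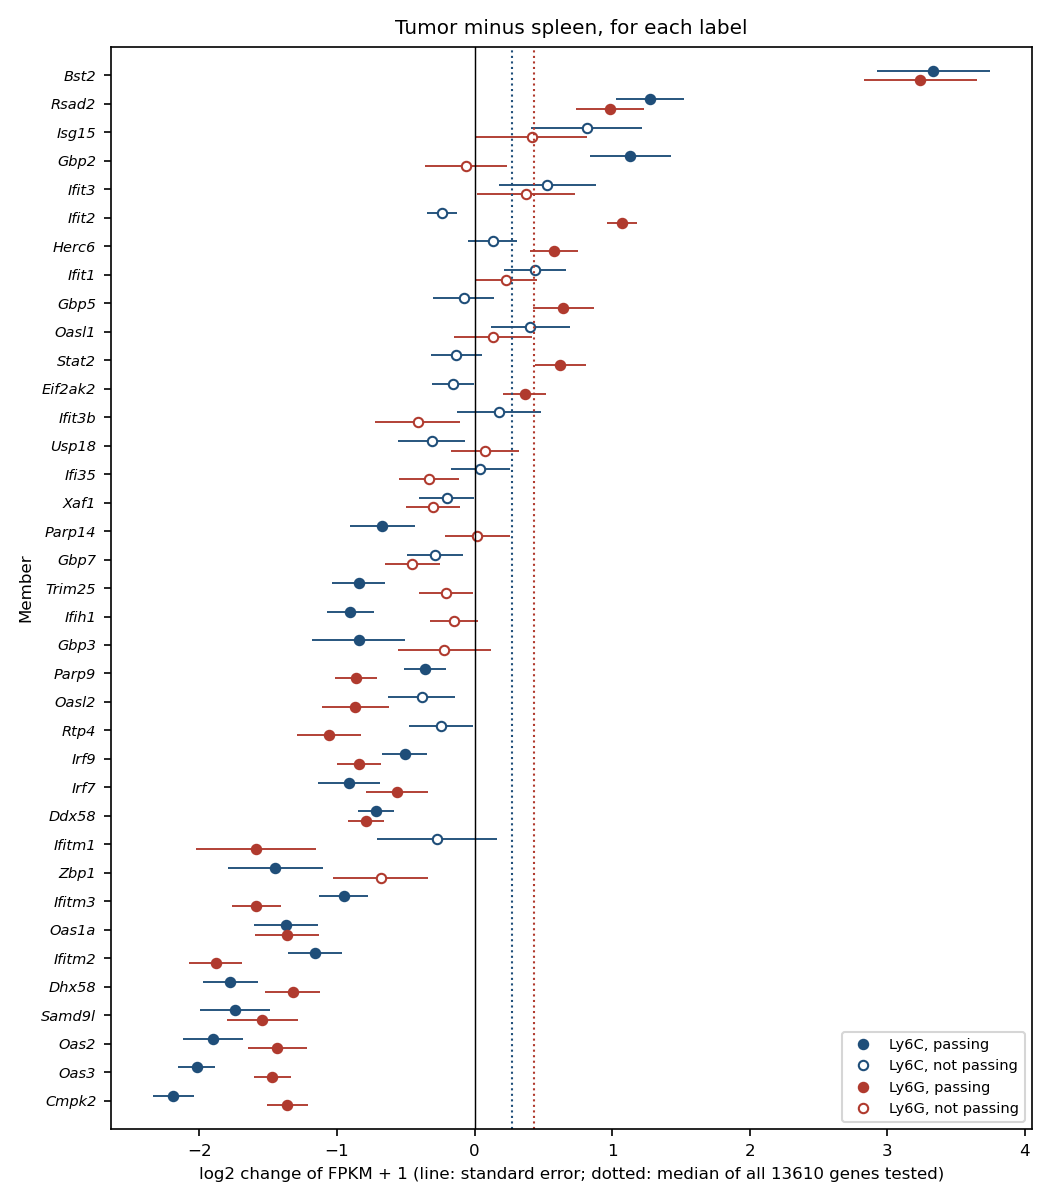
Tumor minus spleen for the 37 genes tested (rows, sorted by the sum of both changes), as differences of log2(FPKM + 1) with standard errors; blue is Ly6C, red is Ly6G, filled points passed and dotted lines are the medians of all genes tested. Most points lie to the left of both dotted lines, Bst2 lies above 3 under both labels, and Cmpk2, Oas3 and Oas2 lie lowest under Ly6C. Relative to pan-leukocyte genes no interferon response gene was called lower, and 97.7% (Ly6C) and 97.4% (Ly6G) of all passing genes were higher.

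Between labels, every one of these genes that passed on FPKM as deposited was lower under Ly6C. The pan-leukocyte rescaling was not run for the label comparisons. In spleen 16 of 37 passed as lower and 0 as higher, where 8.59% of all genes were lower, 22.1% were higher and 30.6% passed. The median log2 difference was -0.41 for the 37 genes and 0.11 for all. In tumor 14 of 37 passed as lower and 0 as higher, where 8.7% of all genes were lower, 5.8% were higher and 14.5% passed. The medians there were -0.63 and 0.04. The labels did not overlap for 17 genes in spleen (42.1% of all genes tested did not) and for 29 in tumor (42.3% of all). At an unadjusted p under 0.05 the count of higher genes was 0 in both tissues too. On a scale with an equal FPKM sum per library, 4 genes passed as higher and 11 as lower in Ly6C spleen, and without Ly6C spleen replicate 1 Ifih1 passed as higher. Among all genes that passed, the share of higher calls was 72.0% in spleen and 40% in tumor; it was 90.7% and 6.95% on the equal-sum scale, and 46.7% and 53.7% with median-of-ratios factors.

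Ifit1, Ifit3, Ifit3b, Ifitm1, Oas3, Oasl1, Oasl2 and Rsad2 were lower under Ly6C in both tissues. Ddx58, Gbp2, Gbp7, Ifitm2, Irf9, Isg15, Parp9 and Rtp4 passed in spleen alone, and Cmpk2, Gbp5, Ifit2, Oas2, Trim25 and Usp18 in tumor alone. The other 15 genes passed in neither tissue. The spleen count was 10 without Ly6G spleen replicate 3. The tumor count depended on single libraries: it was 6 without Ly6C tumor replicate 2 or replicate 3, 7 without Ly6G tumor replicate 2 or replicate 3, 8 without Ly6C tumor replicate 1 and 9 without Ly6G tumor replicate 1.

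Other cell content differed between the labels too. In spleen, 10 of 10 B cell genes, 6 of 6 T cell genes and 6 of 6 erythroid genes tested were lower under Ly6C, with B cell sums of 259 to 396 FPKM against 777 to 1327. Of 10 neutrophil genes 5 were lower and 0 higher in spleen (median -1.06), and of 10 monocyte genes 5 were higher and 1 lower (median 1.12). Among all genes 8.59% were lower and 22.1% higher in that comparison. Pan-leukocyte sums differed little there, with 2 of 20 genes higher and 2 lower. In tumor, 16 of 20 pan-leukocyte genes (median -1.12) and 7 of 10 neutrophil genes were lower under Ly6C, where 8.7% of all genes were lower. Of the 10 monocyte genes, 0 were higher and 1 lower in tumor (median 0.12), where 5.8% of all genes were higher. The monocyte sums were 380.7 to 655.5 FPKM in Ly6C tumor and 1194 to 1849 in Ly6G tumor. The median of the 37 interferon response genes in that comparison was -0.63, and their level relative to pan-leukocyte genes was not tested between labels. The part of this content in the label differences was not tested.

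**Figure D3:**
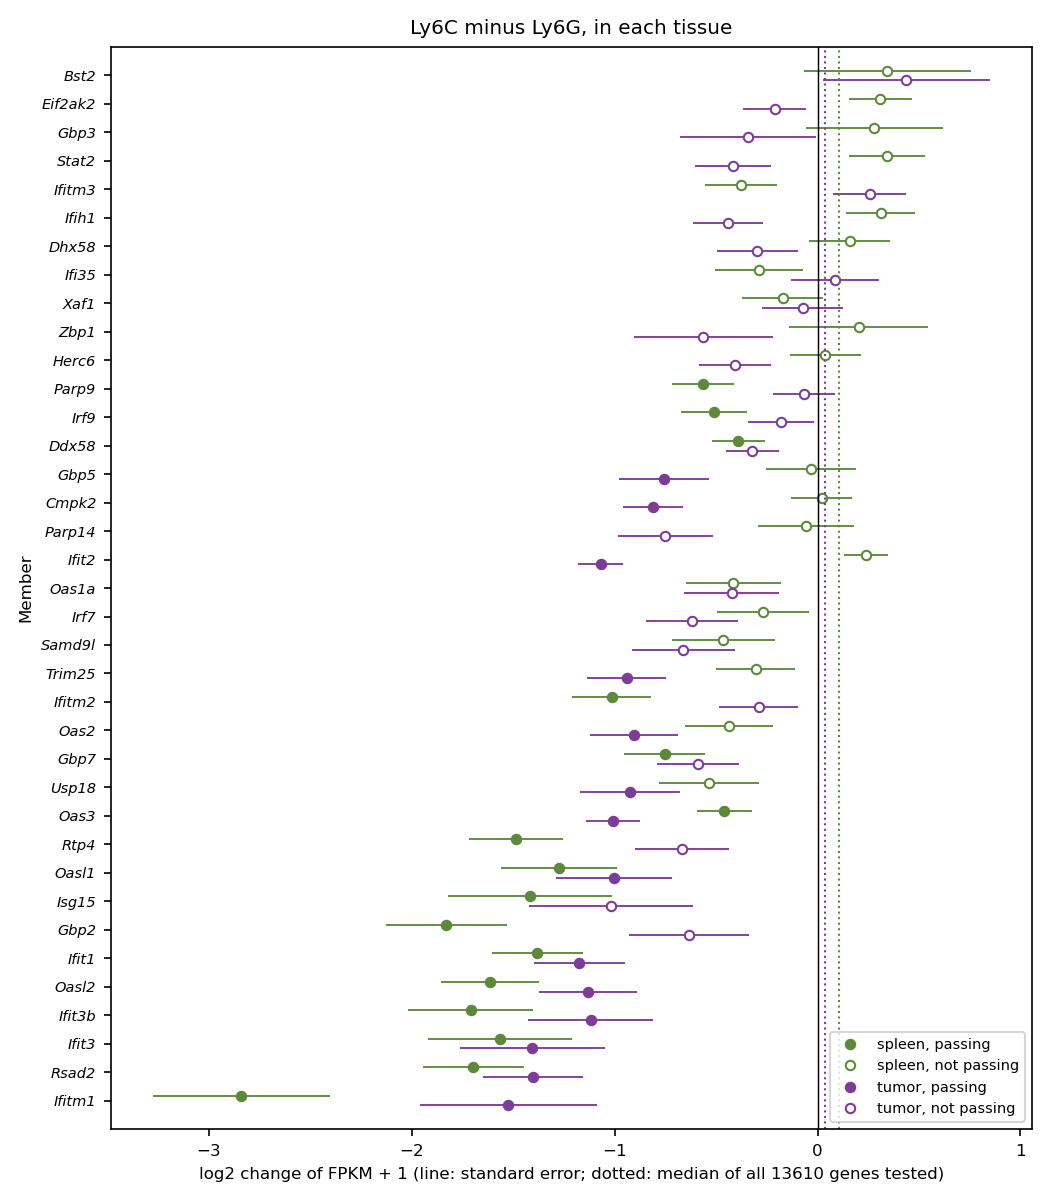
Ly6C minus Ly6G for the 37 genes tested (rows, sorted by the sum of both differences), as differences of log2(FPKM + 1) with standard errors; green is spleen, purple is tumor, filled points passed and dotted lines are the medians of all genes tested. All filled points are left of 0, and Ifitm1 in spleen is the farthest. Values are FPKM as deposited, and the pan-leukocyte rescaling was not run between labels.

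**Figure D4:**
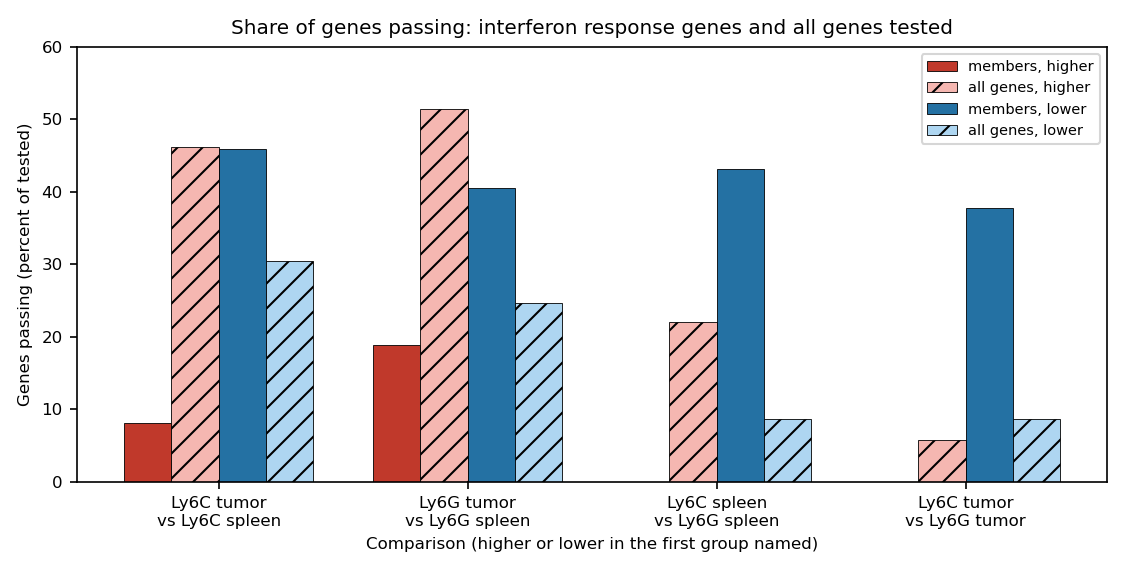
Percent of genes that passed as higher or lower in the first group named, for the 37 interferon response genes (plain bars) and all 13610 genes tested (hatched bars), in 4 comparisons on FPKM as deposited. The lower bars of the interferon response genes reach 45.9%, 40.5%, 43.2% and 37.8%, beside 30.5%, 24.7%, 8.59% and 8.7% for all genes. Scaled to pan-leukocyte genes, no interferon response gene is called lower in tumor, and 97.7% (Ly6C) and 97.4% (Ly6G) of all passing genes are higher. That rescaling was not run between labels.

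The factors that carry the signal, Stat2, Irf9 and Irf7, gave 2 falls in Ly6C tumor, and 2 falls and 1 rise in Ly6G tumor. Of all genes tested, 30.5% were lower in Ly6C tumor, and 24.7% were lower and 51.5% higher in Ly6G tumor. Stat2 (chr10:128270559-128292849), the interferon-specific STAT, was at 5.62, 10.3 and 6.45 FPKM in the Ly6C spleen libraries, 6.65, 6.38 and 6.5 in Ly6C tumor, 4.56, 5.43 and 6.67 in Ly6G spleen and 9.47, 7.88 and 9.8 in Ly6G tumor. The Ly6G tumor libraries were above those of Ly6G spleen, while the Ly6C groups overlapped and Ly6C spleen replicate 2 was the highest of all 12. Stat2 rose by 0.62 ± 0.19 in Ly6G tumor (adjusted p = 0.00952) and its Ly6C change was -0.13 ± 0.19; the Ly6G call was lost with median-of-ratios and quantile scaling.

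Irf9 (chr14:55603571-55610030), the DNA-binding partner of the STATs, was at 1.84, 2.92 and 1.85 FPKM in the Ly6C spleen libraries, 0.875, 1.58 and 1.27 in Ly6C tumor, 3.64, 3.51 and 3.36 in Ly6G spleen and 1.18, 1.87 and 1.55 in Ly6G tumor. Under each label every spleen library was above every tumor library, and every Ly6G spleen library was above every Ly6C spleen library. It fell by 0.51 ± 0.16 in Ly6C tumor (adjusted p = 0.0128) and by 0.84 ± 0.16 in Ly6G tumor (adjusted p = 5.22e-04). The Ly6C call was lost without Ly6C spleen replicate 2 or Ly6C tumor replicate 1 (adjusted p up to 0.0625). In spleen Irf9 was lower under Ly6C by 0.51 ± 0.16 (adjusted p = 0.0333), a call lost without Ly6C spleen replicate 1 or 3 or any Ly6G spleen library (adjusted p up to 0.227).

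Irf7 (chr7:141262706-141266481), an interferon-induced factor that amplifies interferon gene transcription, was at 13.4, 19.6 and 10.7 FPKM in the Ly6C spleen libraries, 8.58, 6.22 and 6.52 in Ly6C tumor, 14.6, 14.5 and 24 in Ly6G spleen and 11.4, 12.3 and 10.4 in Ly6G tumor. The tissues did not overlap under either label, with the highest value in Ly6G spleen replicate 3. Irf7 fell by 0.91 ± 0.23 in Ly6C tumor (adjusted p = 0.00304) and by 0.56 ± 0.23 in Ly6G tumor (adjusted p = 0.0401). The Ly6G call did not hold in 10 of 23 alternatives, among them each run without Ly6G spleen replicate 3, Ly6C tumor replicate 3 or any Ly6G tumor library (adjusted p up to 0.375). Irf7 is also a gene of plasmacytoid dendritic cells, whose other listed genes summed to 27.1 to 41.2 FPKM in Ly6C spleen, 5.36 to 6.63 in Ly6C tumor, 86.4 to 196 in Ly6G spleen and 8.0 to 8.78 in Ly6G tumor. Siglech, which marks those cells, was listed at 0 in all 6 tumor libraries and was at most 0.103 FPKM in spleen. The sum came mostly from other genes, with Ly6d, Spib and Runx2 highest. B cell sums were 259 to 396 FPKM in Ly6C spleen, 5.16 to 8.57 in Ly6C tumor, 777 to 1327 in Ly6G spleen and 5.23 to 8.22 in Ly6G tumor. Which cells the sum of the plasmacytoid dendritic cell list stands for was not tested. The part of either cell type in the Irf7 fall was not tested.

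Of 6 genes that sense foreign nucleic acid or, as Trim25, activate a sensor, 5 passed as lower in Ly6C tumor and 2 in Ly6G tumor, where Eif2ak2 passed as higher. Of all genes tested, 30.5% were lower in Ly6C tumor, and 24.7% were lower and 51.5% higher in Ly6G tumor. Scaled to pan-leukocyte genes none of the 6 was called lower, and 97.7% (Ly6C) and 97.4% (Ly6G) of all passing genes were higher. Dhx58 (LGP2), a regulator of the RIG-I-like receptors, was at 11.2, 18 and 10.8 FPKM in the Ly6C spleen libraries, 3.85, 2.22 and 3.38 in Ly6C tumor, 10.4, 11.4 and 13 in Ly6G spleen and 3.69, 3.77 and 4.67 in Ly6G tumor. No tumor library reached a spleen library, and the 2 labels overlapped within each tissue. Dhx58 fell by 1.77 ± 0.20 in Ly6C tumor (adjusted p = 6.42e-06) and by 1.32 ± 0.20 in Ly6G tumor (adjusted p = 8.11e-05).

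Ddx58 (RIG-I), which detects viral RNA ends, ranged over 3.04 to 9.62 FPKM and fell by 0.72 ± 0.13 and 0.79 ± 0.13 in Ly6C and Ly6G tumor. In spleen it was lower under Ly6C by 0.39 ± 0.13 (adjusted p = 0.0416), a call lost in 12 of 23 alternatives, among them those without Ly6C spleen replicate 1 or any Ly6G spleen library (adjusted p up to 0.607). Ifih1 (MDA5), which detects long viral RNA, was at 1.68, 3.63 and 2.19 FPKM in the Ly6C spleen libraries, 0.779, 0.897 and 0.798 in Ly6C tumor, 1.55, 1.69 and 2.02 in Ly6G spleen and 1.35, 1.74 and 1.37 in Ly6G tumor. Its Ly6C tumor libraries were all under 1 FPKM and below every other library. Ifih1 fell by 0.90 ± 0.17 in Ly6C tumor (adjusted p = 4.53e-04), against -0.15 ± 0.17 in Ly6G tumor. Zbp1, a sensor of left-handed nucleic acid that triggers cell death, ranged over 1.11 to 14 FPKM with its highest value in Ly6C spleen replicate 2. It fell by 1.45 ± 0.34 in Ly6C tumor, and its Ly6G change was -0.68 ± 0.34.

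Trim25, the ubiquitin ligase that activates RIG-I, was at 17.6, 27.4 and 21.4 FPKM in the Ly6C spleen libraries, 9.3, 13 and 13.2 in Ly6C tumor, 22.2, 29.1 and 30.9 in Ly6G spleen and 24.3, 26.7 and 19.8 in Ly6G tumor. The Ly6C tumor libraries were below all 9 others. Trim25 fell by 0.84 ± 0.19 in Ly6C tumor relative to spleen and was lower than in Ly6G tumor by 0.94 ± 0.19 (adjusted p = 0.012). Eif2ak2 (PKR), the kinase that halts translation on viral RNA, ranged over 2.45 to 4.49 FPKM. Its rise of 0.36 ± 0.15 in Ly6G tumor (adjusted p = 0.0493) did not hold in 14 of 22 alternatives, and its sign turned with median-of-ratios factors (-0.03) and quantile normalization (-0.18).

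The genes of the ISG15 system, a ubiquitin-like tag with its protease and ligase, showed no Ly6C tissue change that passed. Isg15 (chr4:156199424-156200818), the tag, was at 13.8, 17.2 and 7.42 FPKM in the Ly6C spleen libraries, 26.3, 18.3 and 22.4 in Ly6C tumor, 27, 21 and 69.2 in Ly6G spleen and 41.4, 63 and 36.7 in Ly6G tumor. Each Ly6C tumor library was above each Ly6C spleen library and below each Ly6G tumor library, and Ly6G spleen replicate 3 was the highest of the 12. The changes were 0.82 ± 0.40 in Ly6C tumor (adjusted p = 0.0841) and 0.41 ± 0.40 in Ly6G tumor (adjusted p = 0.365). Without Ly6G spleen replicate 3 both passed as higher. In spleen Isg15 was lower under Ly6C by 1.42 ± 0.40 (adjusted p = 0.0208), a call lost without that library or Ly6C spleen replicate 3 (adjusted p up to 0.0704).

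Usp18 (chr6:121245906-121270917), the protease that removes ISG15 and damps receptor signalling, was at 2.75, 5.05 and 1.87 FPKM in the Ly6C spleen libraries, 2.23, 2.01 and 2.5 in Ly6C tumor, 4.01, 4.03 and 6.86 in Ly6G spleen and 5.52, 5.33 and 4.63 in Ly6G tumor. The Ly6C tumor libraries were below those of Ly6G tumor, whereas the tissues overlapped under both labels. Usp18 was lower in Ly6C than in Ly6G tumor by 0.92 ± 0.25 (adjusted p = 0.0315); leaving out any of the 6 tumor libraries ended that call (adjusted p up to 0.143). Herc6, the mouse ISG15 ligase, ranged over 1.53 to 3.97 FPKM and rose by 0.58 ± 0.18 in Ly6G tumor, against 0.13 ± 0.18 in Ly6C. Median-of-ratios and quantile scaling ended the Herc6 call.

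The IFIT family, whose proteins bind foreign RNA and block its translation, passed mainly between the labels. Of its 4 genes on chromosome 19, 3 were lower in Ly6C than in Ly6G spleen and 4 in Ly6C than in Ly6G tumor. The shares of all genes lower in these comparisons were 8.59% and 8.7%. Ifit2 (chr19:34550694-34576419) was at 2.58, 2.99 and 2.63 FPKM in the Ly6C spleen libraries, 1.98, 2.04 and 2.5 in Ly6C tumor, 1.99, 2.04 and 2.47 in Ly6G spleen and 5.82, 5.99 and 5.15 in Ly6G tumor. Every Ly6G tumor library was above each of the other 9. Ifit2 rose by 1.07 ± 0.11 in Ly6G tumor (adjusted p = 2.97e-06) and was lower in Ly6C than in Ly6G tumor by 1.07 ± 0.11 (adjusted p = 6.79e-04).

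Ifit3 (chr19:34583531-34588731) was at 2.02, 4.1 and 1.69 FPKM in the Ly6C spleen libraries, 3.96, 3.64 and 4.44 in Ly6C tumor, 7.84, 5.17 and 18.7 in Ly6G spleen and 11.3, 14.6 and 11.2 in Ly6G tumor. Every Ly6C library was below every Ly6G library of its tissue, and Ly6G spleen ranged most widely. Ifit3 was lower under Ly6C by 1.56 ± 0.36 in spleen (adjusted p = 0.00688) and by 1.41 ± 0.36 in tumor (adjusted p = 0.0264), the latter call lost without any of the 6 tumor libraries (adjusted p up to 0.142). Ifit3b (chr19:34607970-34613401) was at 0.784, 1.09 and 0.558 FPKM in the Ly6C spleen libraries, 0.882, 1.06 and 1.17 in Ly6C tumor, 3.56, 3.02 and 10.1 in Ly6G spleen and 3.02, 4.37 and 2.98 in Ly6G tumor. It was lower under Ly6C by 1.71 ± 0.31 in spleen (adjusted p = 0.00191) and by 1.12 ± 0.31 in tumor (adjusted p = 0.0358), and the tumor call was likewise lost without any of the 6 tumor libraries (adjusted p up to 0.161). Ifit3 shared 51.2% of its 50-base words with other genes, mainly Ifit3b, and Ifit3b 45%, so that reads between these copies are uncertain.

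Ifit1, the founding member of the family, was at 1.1, 2.07 and 1.59 FPKM in the Ly6C spleen libraries, 2.71, 2.25 and 2.44 in Ly6C tumor, 4.38, 4.6 and 8.77 in Ly6G spleen and 7.05, 8.06 and 5.53 in Ly6G tumor. It was lower under Ly6C by 1.38 ± 0.22 in spleen and 1.17 ± 0.22 in tumor, with no overlap in either tissue. The tumor call was lost without replicate 3 of both tumor groups (adjusted p = 0.0590). No IFIT gene passed between the tissues except Ifit2 in Ly6G.

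Of the 5 OAS genes, 3 were lower in Ly6C tumor and 4 in Ly6G tumor than in spleen, and under Ly6C 3 were lower in spleen and 4 in tumor. Of all genes tested, 30.5% and 24.7% were lower between tissues, and 8.59% and 8.7% between labels. Scaled to pan-leukocyte genes no OAS gene was called lower in tumor, and 97.7% (Ly6C) and 97.4% (Ly6G) of all passing genes were higher. Oas1a, Oas2 and Oas3 make oligoadenylates that activate RNase L, while Oasl1 and Oasl2 are OAS-like proteins. Oas3 (chr5:120753098-120777661) was at 21.4, 25.6 and 25.1 FPKM in the Ly6C spleen libraries, 5.9, 4.51 and 5.14 in Ly6C tumor, 28.3, 36.3 and 35.9 in Ly6G spleen and 10.2, 11.6 and 12.4 in Ly6G tumor. All 6 spleen libraries were above all 6 tumor libraries, and the Ly6C tumor libraries were lowest. Oas3 fell by 2.02 ± 0.13 in Ly6C tumor (adjusted p = 7.19e-08) and by 1.47 ± 0.13 in Ly6G tumor (adjusted p = 1.18e-06).

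Oas2 (chr5:120730333-120749853) was at 20.3, 34.5 and 29.5 FPKM in the Ly6C spleen libraries, 7.41, 5.7 and 6.82 in Ly6C tumor, 29.4, 40.5 and 44.1 in Ly6G spleen and 10.6, 16.3 and 13.4 in Ly6G tumor. Tissue separated it under both labels, and it fell by 1.90 ± 0.22 in Ly6C (adjusted p = 6.81e-06) and 1.43 ± 0.22 in Ly6G tumor (adjusted p = 7.72e-05). Oas1a ranged over 9.56 to 54.9 FPKM and fell by 1.37 ± 0.23 and 1.36 ± 0.23; it shared 57.6% of its 50-base words with Oas1g and Oas1b. Between labels, Oas3 was lower under Ly6C by 0.46 ± 0.13 in spleen and 1.01 ± 0.13 in tumor. Oas2 was lower in Ly6C than in Ly6G tumor by 0.90 ± 0.22 (adjusted p = 0.0215), a call lost without replicate 2 or 3 of either tumor group (adjusted p up to 0.149). The Oas3 spleen call was lost without Ly6C spleen replicate 1 or Ly6G spleen replicate 2 or 3 (adjusted p up to 0.451 over all alternatives).

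Oasl1, which restrains Irf7 translation, was at 2.98, 5.36 and 3.47 FPKM in the Ly6C spleen libraries, 6.93, 5.48 and 4.13 in Ly6C tumor, 8.37, 7.75 and 18.5 in Ly6G spleen and 11.1, 12.9 and 11.6 in Ly6G tumor. Oasl2 was at 3.73, 7.16 and 5.1 FPKM in the Ly6C spleen libraries, 4.43, 3.5 and 3.34 in Ly6C tumor, 13, 16.7 and 26.3 in Ly6G spleen and 8.3, 10.4 and 9.55 in Ly6G tumor. For both genes each Ly6C library was below each Ly6G library of its tissue. Oasl1 was lower under Ly6C by 1.27 ± 0.29 in spleen and 1.0 ± 0.29 in tumor, and Oasl2 by 1.61 ± 0.24 and 1.13 ± 0.24. Neither passed between tissues in Ly6C, while Oasl2 fell by 0.87 ± 0.24 in Ly6G tumor. In tumor the Oasl1 call was lost without any of the 6 tumor libraries, and the Oasl2 call without Ly6C tumor replicate 2 or 3.

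Rsad2 and Cmpk2, the neighbours on chromosome 12, moved in opposite directions between the tissues. Viperin, the product of Rsad2, makes a chain-terminating nucleotide, and Cmpk2 is the nucleotide kinase that supplies its substrate. Rsad2 (chr12:26442746-26456452) was at 1.73, 1.7 and 1.69 FPKM in the Ly6C spleen libraries, 6.29, 4.38 and 6.19 in Ly6C tumor, 6.75, 5.25 and 12.9 in Ly6G spleen and 13.5, 18 and 17.9 in Ly6G tumor. Each tumor group was above the spleen group of its label and Ly6C was below Ly6G in each tissue. Rsad2 rose by 1.28 ± 0.25 in Ly6C tumor (adjusted p = 5.40e-04) and 0.98 ± 0.25 in Ly6G tumor (adjusted p = 0.00337), and was lower under Ly6C by 1.70 ± 0.25 in spleen and 1.40 ± 0.25 in tumor. The Ly6G rise did not pass with median-of-ratios factors (adjusted p = 0.0774).

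Cmpk2 (chr12:26469204-26479837) was at 23.2, 21.2 and 20.3 FPKM in the Ly6C spleen libraries, 4.38, 3.48 and 4.0 in Ly6C tumor, 17.1, 24.5 and 22.8 in Ly6G spleen and 6.5, 7.76 and 8.89 in Ly6G tumor. All 6 spleen libraries were above all 6 tumor libraries, and the labels overlapped in spleen but not in tumor. Cmpk2 fell by 2.19 ± 0.15 in Ly6C tumor (adjusted p = 8.48e-08) and 1.36 ± 0.15 in Ly6G tumor (adjusted p = 5.37e-06). Relative to the pan-leukocyte genes neither gene was called lower in tumor, and 97.7% (Ly6C) and 97.4% (Ly6G) of all passing genes were higher. Mx1 and Mx2, GTPases that trap incoming viruses, were too low to test. Mx1 ranged over 0.0768 to 4.37 FPKM and Mx2 over 0.238 to 2.41 FPKM, each with its highest value in Ly6C spleen replicate 2.

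**Figure D5:**
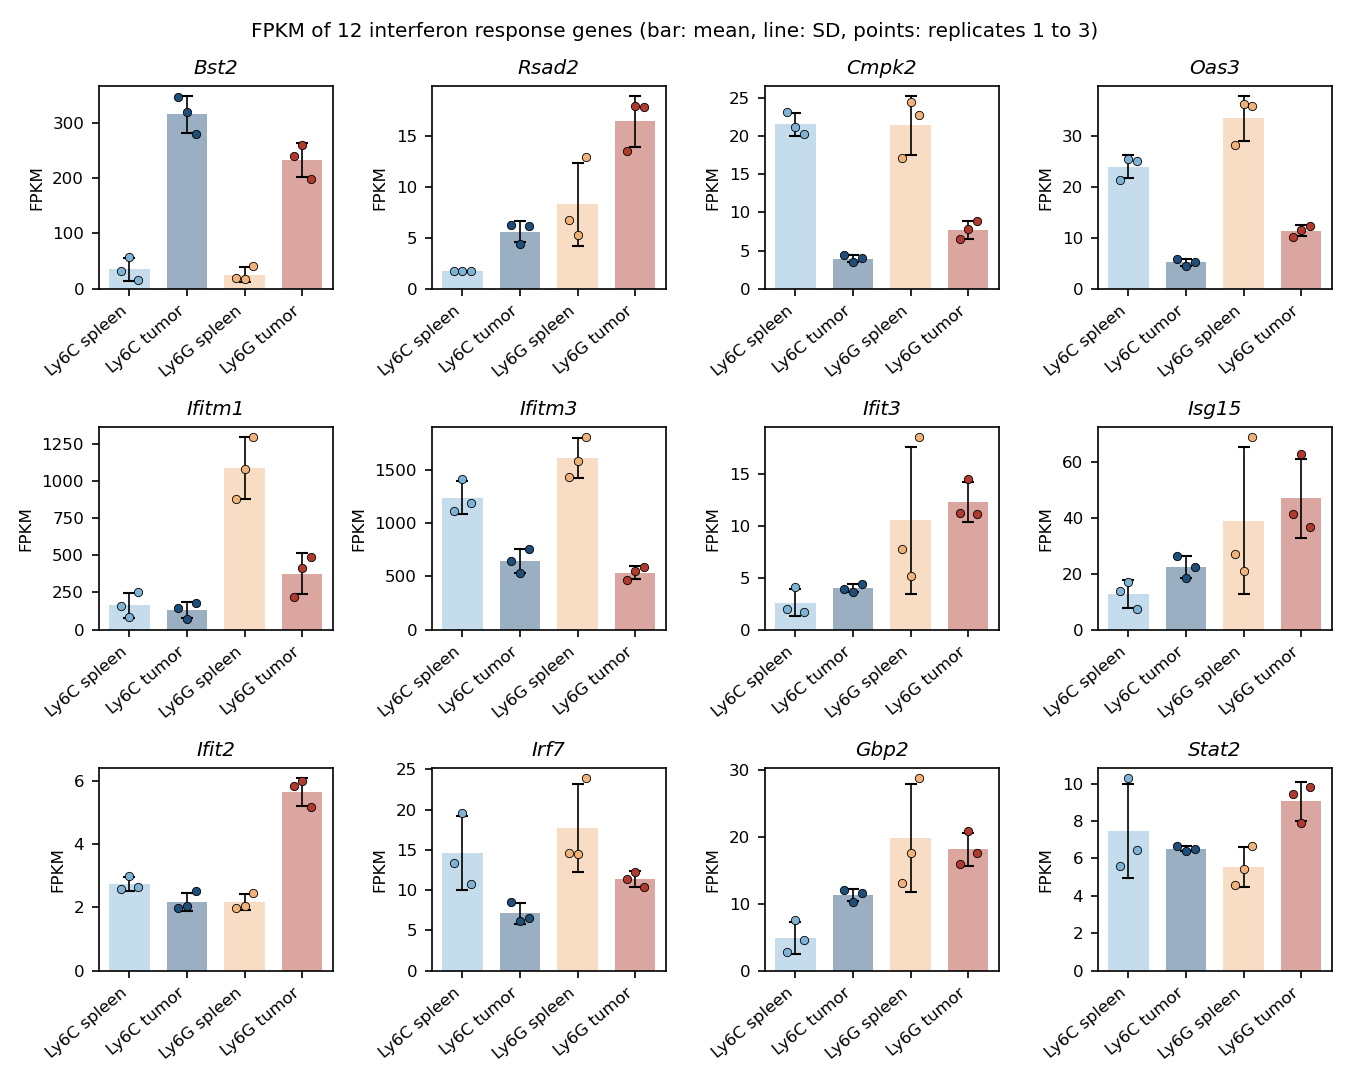
FPKM of 12 of the genes in the 4 groups of 3 libraries, each on a linear axis from 0; bars are means, lines are SD and points are libraries 1 to 3 from left to right. Bst2 and Rsad2 are higher in tumor, Cmpk2, Oas3 and Ifitm3 are lower in tumor, and Ifit2 is high in Ly6G tumor alone. Replicate 3 of Ly6G spleen lies above the other points of its group for Isg15 and Ifit3. Scaled to pan-leukocyte genes, no interferon response gene is called lower in tumor, and 97.7% (Ly6C) and 97.4% (Ly6G) of all passing genes are higher.

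The guanylate-binding proteins, GTPases that attack vacuoles of intracellular microbes, had 1 gene that rose under each label, Gbp2 in Ly6C and Gbp5 in Ly6G. Of all genes tested, 46.2% were higher in Ly6C tumor and 51.5% in Ly6G tumor. Gbp2 (chr3:142620602-142638008) was at 2.72, 7.5 and 4.55 FPKM in the Ly6C spleen libraries, 12, 10.3 and 11.6 in Ly6C tumor, 13.2, 17.6 and 28.9 in Ly6G spleen and 16, 20.9 and 17.6 in Ly6G tumor. The Ly6C spleen libraries were below all 9 others. Gbp2 rose by 1.13 ± 0.30 in Ly6C tumor (adjusted p = 0.0042), had a difference of -0.06 ± 0.30 in Ly6G tumor, and was lower in Ly6C than in Ly6G spleen by 1.83 ± 0.30 (adjusted p = 0.00104).

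Gbp5, which promotes inflammasome assembly, ranged over 0.604 to 2.46 FPKM and rose by 0.65 ± 0.22 in Ly6G tumor, a call lost without Ly6G spleen replicate 1 or 2 or Ly6G tumor replicate 2. Its lower level in Ly6C than in Ly6G tumor, by 0.76 ± 0.22, was lost in 13 of 22 alternatives (adjusted p up to 0.233). Gbp3 ranged over 1.55 to 8.82 FPKM. Its fall of 0.84 ± 0.34 in Ly6C tumor was lost without Ly6C spleen replicate 2 or Ly6C tumor replicate 1 or 2 (adjusted p up to 0.158). Gbp7 ranged over 1.6 to 5.66 FPKM, passed in neither tissue comparison and was lower in Ly6C than in Ly6G spleen by 0.75 ± 0.20; this call was lost without Ly6C spleen replicate 1 or Ly6G spleen replicate 3.

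Among the membrane proteins that restrict viruses, Bst2 rose under both labels, while Ifitm2 and Ifitm3 fell under both and Ifitm1 in Ly6G on FPKM as deposited. Scaled to pan-leukocyte genes none was called lower, and 97.7% (Ly6C) and 97.4% (Ly6G) of all passing genes were higher. Bst2 (chr8:71534255-71537456), or tetherin, holds budding virions at the cell surface. It was at 32.3, 57 and 14.7 FPKM in the Ly6C spleen libraries, 346, 319 and 279.7 in Ly6C tumor, 19.2, 16.8 and 40.2 in Ly6G spleen and 239.8, 259.8 and 199 in Ly6G tumor. Every tumor library was above every spleen library, and the group means were 34.7 ± 21.3 FPKM in Ly6C spleen, 315 ± 33.4 FPKM in Ly6C tumor, 25.4 ± 12.9 FPKM in Ly6G spleen and 233 ± 31.1 FPKM in Ly6G tumor (SD, n = 3). Bst2 rose by 3.34 ± 0.41 in Ly6C tumor (adjusted p = 1.37e-05) and 3.24 ± 0.41 in Ly6G tumor (adjusted p = 1.87e-05). Over 23 alternatives its changes ranged from 2.84 to 3.79 and from 2.74 to 3.62. The pan-leukocyte rescaling was not among these 23.

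Some genes of other cells rose in tumor too, as did 46.2% (Ly6C) and 51.5% (Ly6G) of all genes tested. Krt8, a keratin of epithelial cells, was at 0.159, 0 and 0.0494 FPKM in the Ly6C spleen libraries, 664, 770.0 and 576 in Ly6C tumor, 0.263, 0.0738 and 0.0725 in Ly6G spleen and 574, 520.0 and 356 in Ly6G tumor. Krt8 was near 0 in every spleen library and high in every tumor library. Bst2 is itself on the marker list of plasmacytoid dendritic cells, and the other genes of that list were lower in tumor in sum. The part of these cells in the Bst2 rise was not tested.

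Ifitm1 (chr7:140967221-140969825) was at 158, 82.7 and 251 FPKM in the Ly6C spleen libraries, 144, 72.2 and 178 in Ly6C tumor, 877, 1083 and 1297 in Ly6G spleen and 222, 414 and 491 in Ly6G tumor. The Ly6G spleen libraries were above all others, and the Ly6C libraries overlapped between tissues. Ifitm1 was lower in Ly6C than in Ly6G spleen by 2.84 ± 0.44 (adjusted p = 7.68e-04), fell by 1.59 ± 0.44 in Ly6G tumor (adjusted p = 0.00567) and had a difference of -0.27 ± 0.44 in Ly6C tumor. In tumor it was lower under Ly6C by 1.52 ± 0.44 (adjusted p = 0.040), a call lost in 11 of 23 alternatives, among them the runs without any Ly6C tumor library or without Ly6G tumor replicate 2 or 3 (adjusted p up to 0.162).

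Ifitm2 (chr7:140954837-140955987) was at 790.0, 648 and 776 FPKM in the Ly6C spleen libraries, 355, 266 and 376 in Ly6C tumor, 1467, 1364 and 1636 in Ly6G spleen and 311, 468 and 446 in Ly6G tumor. Ifitm3 (chr7:141009586-141010770), which restricts influenza virus, was at 1110.1, 1414 and 1191 FPKM in the Ly6C spleen libraries, 643, 534 and 752 in Ly6C tumor, 1433, 1585 and 1811 in Ly6G spleen and 466, 551 and 589.7 in Ly6G tumor. For both genes every spleen library was above every tumor library of its label. Ifitm2 fell by 1.16 ± 0.19 in Ly6C tumor and 1.88 ± 0.19 in Ly6G tumor (adjusted p = 3.21e-06), and Ifitm3 by 0.95 ± 0.18 and 1.59 ± 0.18 (adjusted p = 6.65e-06). The labels differed for Ifitm2 in spleen, by 1.01 ± 0.19, but Ifitm3 did not pass in either tissue. Ifitm2 shared 48.5% of its 50-base words with other loci, and a same-strand gene model overlapped 40.9% of its exon bases.

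The remaining genes fell or did not pass. Parp9, which works with an E3 ligase in interferon responses, ranged over 4.3 to 11.1 FPKM and fell by 0.86 ± 0.15 in Ly6G tumor; its Ly6C fall of 0.36 ± 0.15 was lost in 12 of 23 alternatives (adjusted p up to 0.195), among them those without Ly6C spleen replicate 2 or any tumor library. In spleen Parp9 was lower under Ly6C by 0.57 ± 0.15, a call lost without Ly6C spleen replicate 1 or Ly6G spleen replicate 3. Parp14, an ADP-ribosyltransferase of macrophages and B cells, ranged over 3.02 to 9.53 FPKM and fell by 0.67 ± 0.24 in Ly6C tumor, against 0.02 ± 0.24 in Ly6G. The Parp14 call was lost without Ly6C spleen replicate 2 or Ly6C tumor replicate 1 or 2.

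Samd9l, an interferon-induced suppressor of translation, was at 43.1, 35.3 and 60.2 FPKM in the Ly6C spleen libraries, 10.3, 14.1 and 14.5 in Ly6C tumor, 60.6, 84.6 and 47.8 in Ly6G spleen and 15.6, 25.6 and 22.6 in Ly6G tumor. The tissues did not overlap, and it fell by 1.74 ± 0.26 in Ly6C and 1.54 ± 0.26 in Ly6G tumor. Rtp4, a chaperone that restricts flaviviruses, ranged over 3.09 to 19.5 FPKM, fell by 1.06 ± 0.23 in Ly6G tumor and was lower in Ly6C than in Ly6G spleen by 1.49 ± 0.23. Xaf1, a proapoptotic partner of XIAP, ranged over 0.94 to 2.44 FPKM, and Ifi35 over 14.1 to 29 FPKM; neither passed in any comparison. Ifi44 was at most 0.363 FPKM and was not tested.

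The tissue effect differed between the labels for 3 of 37 genes, all of which were lower in the Ly6C change (0 higher, and 5 higher at an unadjusted p under 0.05), where 15.8% of all genes were lower, 6.02% higher and 21.8% passed. Ifit2 changed by -0.24 ± 0.11 in Ly6C and 1.07 ± 0.11 in Ly6G tumor, a difference of -1.31 ± 0.16 (adjusted p = 6.30e-04). For Cmpk2 the changes were -2.19 ± 0.15 and -1.36 ± 0.15 and differed by -0.83 ± 0.21 (adjusted p = 0.0174). For Ifih1 they were -0.90 ± 0.17 and -0.15 ± 0.17 and differed by -0.75 ± 0.24 (adjusted p = 0.0458). On the equal-sum scale 12 genes were lower, and with median-of-ratios factors 5 were higher and 1 was lower, and without Ly6C spleen replicate 1 the count lower was 5.

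Single spleen libraries stood apart within their groups. Ly6C spleen replicate 2 held the highest of the 3 values for 31 of 37 genes (83.8%), against 56.1% of all genes tested. Ly6G spleen replicate 3 did so for 31 of 37 too, against 48.8% of all genes, and Ly6G tumor replicate 2 for 26 of 37 (70.3%), against 34.4%. The median gap to the other libraries of the group was 0.59 in Ly6C spleen replicate 2 and 0.39 in Ly6G spleen replicate 3 on the log2 scale, against 0.13 and 0.06 for all genes.

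Those libraries also held the most Mx1, Zbp1 and Gbp3 (Ly6C spleen replicate 2) or the most Isg15, Ifit3, Ifit3b and Oasl2 (Ly6G spleen replicate 3). The 10 monocyte genes listed summed to 763, 1039 and 605 FPKM in the Ly6C spleen libraries, and the 10 B cell genes to 777, 901 and 1327 in the Ly6G spleen libraries. Each sum was highest in the library that stood apart. In Ly6C spleen replicate 2 the B cell, macrophage, dendritic cell, plasmacytoid dendritic cell and NK cell sums were also the highest of the group, and the neutrophil and pan-leukocyte sums the lowest. In Ly6G spleen replicate 3 the T cell, NK cell, macrophage, dendritic cell and plasmacytoid dendritic cell sums were the highest too, with 196 FPKM for the last against 86.4 and 104, and the neutrophil sum was the lowest. The part of these cells in the differences was not tested. Leaving out both libraries gave 7 genes higher and 14 lower in Ly6C tumor, 10 and 15 in Ly6G tumor, 0 and 16 between the labels in spleen and 0 and 23 between the labels in tumor.

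Upstream of these genes, the interferons themselves were near 0. The pathway genes below were compared on FPKM as deposited, and the pan-leukocyte rescaling was not run for them. None of the 10 ligands passed the filter, and 7 of them were under 0.1 FPKM in every library. Ifnb1 was listed at 0 in all 6 spleen libraries, was at 0.0749, 0 and 0.0625 FPKM in Ly6C tumor and at 0.0559, 0.0746 and 0.146 in Ly6G tumor. The depth behind such values is unknown.

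Of the 6 receptor genes, 5 fell in Ly6C tumor, 4 fell in Ly6G tumor and none rose, where 30.5% and 24.7% of all genes tested were lower. Ifnar1 was at 5.69, 8.6 and 6.69 FPKM in the Ly6C spleen libraries, 5.43, 5.65 and 5.64 in Ly6C tumor, 6.16, 7.3 and 7.24 in Ly6G spleen and 7.71, 9.32 and 7.68 in Ly6G tumor. Ifnar2 was at 22.3, 24.6 and 22.4 FPKM in the Ly6C spleen libraries, 14, 13.3 and 13.7 in Ly6C tumor, 22.7, 23.5 and 24.6 in Ly6G spleen and 15, 16 and 17 in Ly6G tumor. Every Ly6C spleen library was above every Ly6C tumor library for Ifnar1, and every Ly6G tumor library was above every Ly6G spleen library, but Ifnar1 passed in neither tissue comparison (-0.27 ± 0.14 and 0.22 ± 0.14). It was lower in Ly6C than in Ly6G tumor by 0.49 ± 0.14, a call lost without any of the 6 tumor libraries (adjusted p up to 0.172). Ifnar2 fell by 0.72 ± 0.09 and 0.53 ± 0.09 with no overlap between tissues. Ifnlr1, the receptor of type III interferons, fell most, by 3.24 ± 0.33 and 2.35 ± 0.33. Ifngr2 was lower in Ly6C than in Ly6G spleen by 0.33 ± 0.11, a call lost in 15 of 23 alternatives (adjusted p up to 0.935).

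Tyk2, a kinase on the receptor, was at 15.1, 24.3 and 13.3 FPKM in the Ly6C spleen libraries, 7.38, 6.91 and 6.08 in Ly6C tumor, 5.2, 5.58 and 5.9 in Ly6G spleen and 8.38, 7.24 and 7.29 in Ly6G tumor. The Ly6C spleen libraries were above all others, and Tyk2 fell by 1.21 ± 0.18 in Ly6C tumor, against 0.40 ± 0.18 in Ly6G, a difference that passed (-1.60 ± 0.25, adjusted p = 0.00197).

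Among 12 tested genes that induce interferon, 8 fell and 1 rose in Ly6C tumor, and 4 fell and 3 rose in Ly6G tumor. Of all genes tested, 30.5% were lower and 46.2% higher in the Ly6C comparison and 24.7% and 51.5% in the Ly6G comparison, where 76.7% and 76.2% passed. Mavs, the mitochondrial adaptor of the RNA sensors, rose by 1.61 ± 0.24 and 1.67 ± 0.24. Irf5, a factor downstream of Toll-like receptors, fell by 2.34 ± 0.38 in Ly6C tumor, and Tlr7, an endosomal RNA receptor, by 2.25 ± 0.29 in Ly6G tumor. Of 7 negative regulators, Rnf125, Socs1, Socs3 and Trim24 rose under both labels, with Rnf125, a ligase for RIG-I, highest at 2.15 ± 0.16 and 1.95 ± 0.16. These 4 were 57.1% of the list, near the 46.2% and 51.5% of all genes that were higher. In Ly6C tumor 3 of the 7 fell, and in Ly6G tumor 2 fell. Ptpn6, which fell by 3.49 ± 0.22 and 2.42 ± 0.22, is a pan-leukocyte gene as well.

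Of the 4 other IRF genes, Irf1 rose by 2.06 ± 0.35 in Ly6C tumor, against 0.51 ± 0.35 in Ly6G, which did not pass. The 3 others fell under both labels, with lowest changes of -2.17 and -2.12. Of all genes tested, 30.5% were lower and 46.2% higher in Ly6C tumor, and 24.7% and 51.5% in Ly6G tumor. Irf1, an activator of interferon-gamma target genes, was at 12.4, 10.3 and 8.67 FPKM in the Ly6C spleen libraries, 31.9, 70.8 and 43.6 in Ly6C tumor, 29.1, 26.2 and 33.4 in Ly6G spleen and 74.8, 39.7 and 25.2 in Ly6G tumor. Among 6 tested interferon-gamma target genes, 2 rose and 2 fell in Ly6C tumor, and 1 rose and 3 fell in Ly6G tumor; 66.7% of the list passed in each, below the 76.7% and 76.2% of all genes. Cxcl10, a chemokine for T cells, was at 0.699, 1.66 and 0.56 FPKM in the Ly6C spleen libraries, 10.3, 10.8 and 10.2 in Ly6C tumor, 0.557, 0.537 and 1.01 in Ly6G spleen and 20.3, 16.5 and 16.4 in Ly6G tumor. All tumor libraries were at 10 FPKM or more and all spleen libraries under 2 FPKM, and Cxcl10 rose by 2.58 ± 0.19 and 3.46 ± 0.19.

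A further list of 39 tested type I interferon-induced genes gave the following counts: 28 fell and 4 rose in Ly6C tumor (median -0.85), and 22 fell and 5 rose in Ly6G tumor (median -0.77). Among all genes 30.5% were lower and 46.2% higher in Ly6C tumor (median 0.27), and 24.7% and 51.5% in Ly6G tumor (median 0.43). Slfn1, a Schlafen gene of resting leukocytes, was at 99.4, 77.8 and 115 FPKM in the Ly6C spleen libraries, 10.2, 7.03 and 9.53 in Ly6C tumor, 209.7, 247 and 194 in Ly6G spleen and 23, 36.8 and 28.2 in Ly6G tumor. It fell by 3.31 ± 0.20 in Ly6C tumor and fell by 2.86 ± 0.20 in Ly6G tumor, with no overlap between tissues. Lgals3bp, a secreted galectin partner, rose by 1.18 ± 0.42 and 1.58 ± 0.42; the Ly6C call was lost without Ly6C spleen replicate 1 or 3 or Ly6C tumor replicate 2 or 3 (adjusted p up to 0.104). Between labels, 9 of these genes were lower and 4 higher in Ly6C than in Ly6G spleen, and 12 lower and 1 higher in tumor. Among all genes 8.59% were lower and 22.1% higher in spleen, and 8.7% and 5.8% in tumor. The exception in tumor was Ms4a4c, which was higher under Ly6C by 1.65 ± 0.43 there and 1.68 ± 0.43 in spleen. The tumor call was lost without any Ly6C tumor library or Ly6G tumor replicate 1 or 2 (adjusted p up to 0.212).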

How the data were processed

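RNA of 12 libraries was measured by sequencing. The authors deposited FPKM per gene; per the submitters' processing notes HISAT2 2.0.5, featureCounts 1.5.0-p3 and GRCm38 were used, and whether strand was counted is not given in the sources used here. Whole reads could not be recovered (22.1% to 24.1% of low values lay within 0.05 of a whole step), so the depth behind each value is unknown. Rows without an Ensembl identifier (570, 0.463% to 1.04% of FPKM) were left out. The 54104 others summed with them to 331681 to 449309 FPKM per library.

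The 13610 genes that reached 1 FPKM in 3 or more of 12 libraries were fitted on log2(FPKM + 1) with limma 3.58.1 in R 4.3.3: 4 group means, a variance trend, and Benjamini-Hochberg adjustment over all genes with a threshold of 0.05. Errors after ± are standard errors of changes unless marked SD. Tissue was compared within each label, label within each tissue, and the tissue effects with each other. The script was tested on simulated data. Alternatives were pseudocounts, filters, scalings, a replicate block, no variance trend and omitted libraries. The pan-leukocyte rescaling was run for counts in the tissue comparisons only. It is not among the alternatives counted for single genes, label comparisons or differences of tissue effects.

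The genes and lists were chosen with earlier results of these data known. Named with every library were the 3 largest rises and falls that passed in each comparison and a set of 9 genes (Isg15, Irf7, Irf9, Stat2, Usp18, Bst2 and Ifitm1 to Ifitm3), with Ifnb1, Ifnar1 and Ifnar2. The rule also took the largest rise and fall of each pathway list, but not all of these are named. Several of those named are given without library values. A further gene that the rule names is not reported here. Values of Dhx58, Trim25, Ifit1, Oasl1, Oasl2 and Samd9l were added after they were seen. Gene coordinates are GRCm38, from GENCODE M21. Shared 50-base words and exon overlaps come from the same annotation.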

Additional observations from a re-analysis of the deposited data

Results flagged for a closer look

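The tissue effect of 3 genes differed between the Ly6C and Ly6G labels by a test of the difference itself, the interaction term of limma with Benjamini-Hochberg adjustment. The difference, Ly6C minus Ly6G, was -1.31 for Ifit2, -0.83 for Cmpk2 and -0.75 for Ifih1 on the log2 scale. The Ifit2 difference passed in all 23 alternatives, with an adjusted p up to 0.00578. The pan-leukocyte rescaling was not among the alternatives for these 3 genes. The pan-leukocyte genes had a median difference of -1.16 themselves, with 10 of 20 lower, against 15.8% of all genes. The Cmpk2 difference did not pass with median-of-ratios factors or without replicate 3 of both tumor groups (adjusted p up to 0.0955 over 23 alternatives). The Ifih1 difference did not pass in 15 of 22 alternatives (adjusted p up to 0.122), among them the runs that left out any tumor library, any Ly6G spleen library or Ly6C spleen replicate 3.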

How the results depend on the processing

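Over the log2 changes of single interferon response genes, 3901 alternative values kept their direction and side of the threshold, 183 lost the call, 124 gained one and 2 reversed. Both reversals were of Eif2ak2 in the Ly6G tissue comparison, at -0.0326 with median-of-ratios factors and at -0.18 when quantile normalized. The pan-leukocyte rescaling is not in this tally, since only counts of the tissue comparisons were taken under it. With that rescaling no interferon response gene was called lower in tumor, as the counts below show. In the Ly6C tissue comparison, 3 genes were higher and 17 lower; leaving out 1 library gave 3 to 5 and 13 to 17, rescaling to pan-leukocyte genes 39 and 0, and omitting Ly6C spleen 2 and Ly6G spleen 3 gave 7 higher. In the Ly6G tissue comparison (7 and 15), leaving out 1 library gave 5 to 9 and 14 to 18, the 5 FPKM filter 4 higher, median-of-ratios factors 2, quantile normalization 3 and pan-leukocyte rescaling 38 and 0. Between labels in spleen (0 and 16), leaving out 1 library gave 0 to 1 and 10 to 19, and the equal-sum scale 4 higher. Between labels in tumor (0 and 14), leaving out 1 library gave 6 to 19 lower, no filter 8, omitting the 2 spleen libraries 23 and omitting replicate 3 of both tumor groups 3. For the difference of tissue effects (0 and 3), leaving out 1 library gave 0 to 3 and 2 to 5. Higher counts there were 5 with median-of-ratios factors, 3 after quantile normalization, 1 with the replicate block and 2 without the 2 spleen libraries; lower counts were 12 on the equal-sum scale, 1 with median-of-ratios factors, 5 without the spleen libraries and 1 without the tumor libraries. The omissions of 2 libraries were chosen after seeing the data, and the cause of these changes was not tested.

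Over all genes, the 5 FPKM filter tested fewer genes and gave 3926 higher and 2768 lower in the Ly6C tissue comparison (6289 and 4154) and 4320 higher in the Ly6G one (7010). Lower calls there were 5037 (median-of-ratios factors) and 5120 (quantile normalization), against 3357. Between labels in spleen (3002 higher, 1169 lower), the equal-sum scale gave 5399 and 551, median-of-ratios factors 1917 and 2189, and quantile normalization 1931 higher. Between labels in tumor (790 higher, 1184 lower), higher calls were 1239 with a pseudocount of 5, 456 with no filter, 108 on the equal-sum scale, 1241 with median-of-ratios factors, 1224 after quantile normalization, 1555 without the spleen libraries and 74 to 1248 leaving out 1 library; without the tumor libraries 8 were higher and 244 lower, and leaving out 1 library gave 608 to 1372 lower. For the difference of tissue effects (820 and 2152), the equal-sum scale gave 271 and 4544, median-of-ratios factors 1800 and 1361, quantile normalization 1607 higher, the omission of the tumor libraries 292 and 1128, and leaving out 1 library 511 to 1094 higher. The cause was not tested.

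The deviations of same-numbered libraries of different groups correlated at -0.36 to 0.279 (median 0.02, 5 of 18 pairs over 0.1). Those of different numbers correlated at -0.393 to 0.427 (median -0.02, 7 of 36). Between the labels, replicates 1 to 3 were at 0.263, -0.264 and -0.36 in spleen and at -0.0894, 0.112 and 0.279 in tumor. The replicate block gave 3 higher and 17 lower, 7 and 15, 0 and 16, 0 and 12, and 1 and 4 genes in the 5 comparisons. Of the pathway genes named, Ifnar2 reversed between labels in spleen, where it had not passed, at 0.280 on the equal-sum scale; counts of the pathway lists stayed within 1.5 times in 1399 alternatives and moved further in 211. Depth is unknown, so no counting error could be given.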
